A study of Mus musculus with 12 samples.

Results

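Endocannabinoids are lipid messengers that neurons release backwards across the synapse, and the striatum is one of the brain regions where their main receptor is dense. They are made on demand from membrane lipids, act on presynaptic receptors that reduce transmitter release, and are then cut by hydrolases. The genes described here are the 10 that encode the receptors Cnr1, Cnr2 and Trpv1, the synthetic enzymes Dagla, Daglb and Napepld, and the degrading enzymes Mgll, Abhd6, Abhd12 and Faah. They were chosen by name, as the probe sets annotated with that single gene symbol. Each gene had 1 probe set, so they make up 10 of the 21780 probe sets with a single symbol that were tested.

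RNA came from the striatum of male Swiss-Albino mice aged 2 months, with RNA of 4 animals pooled for each array. The saline group (6 arrays) received vehicle with vehicle during induction. The morphine group (3 arrays) received vehicle with morphine at 20 mg/kg. The butyrate-morphine group (3 arrays) received sodium butyrate at 300 mg/kg, an inhibitor of histone deacetylases, immediately before each morphine injection. Induction took 6 trials on alternate days. A challenge injection followed after 7 days, and RNA was taken 1 h after it. Both morphine groups were challenged with morphine. The labels conflict on the saline group, whose challenge is saline by the source names and morphine by the protocol. Whether a difference from saline includes the acute effect of the challenge dose is thus not settled. In pooled tissue, fewer cells of a type and less RNA per cell cannot be told apart.

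Each deposited value is a difference from a baseline, taken as log2, and not a level. The saline arrays are mirror images in pairs (1 and 2, 3 and 4, 5 and 6), so the saline mean is 0 for every gene and the 6 arrays hold 3 independent values. Levels of different genes therefore cannot be compared, and only a coarse brightness class survives in the rounding of the numbers. By that class Cnr1, Dagla, Mgll, Abhd6 and Abhd12 were computed from stored values of 8 to 16 on the log2 scale. Cnr2, Trpv1, Daglb, Napepld and Faah each had at least 1 stored value between 4 and 8. The bright class thus held 5 of the 10 genes, beside 25.9% of all tested probe sets, and it held 7 of 8 probe sets of striatal projection neuron markers. Array medians over the tested probe sets lay between -0.02 and 0.01.

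Promoter windows are shown for Cnr1, the gene of the family that passed the test, and for Mgll, the degrading enzyme whose arrays differed most between the groups with and without butyrate. Each is the 250 bases before the most upstream RefSeq start site of assembly GRCm38.p6, 5′ to 3′ on the plus strand. They lie at chr4:33924014-33924263 (Cnr1) and chr6:88724162-88724411 (Mgll). Capitals mark matches on either strand to the GC box GGGCGG, the E-box CACGTG that clock factors bind, and TGTTCT, the stronger arm of the glucocorticoid response element.
Cnr1: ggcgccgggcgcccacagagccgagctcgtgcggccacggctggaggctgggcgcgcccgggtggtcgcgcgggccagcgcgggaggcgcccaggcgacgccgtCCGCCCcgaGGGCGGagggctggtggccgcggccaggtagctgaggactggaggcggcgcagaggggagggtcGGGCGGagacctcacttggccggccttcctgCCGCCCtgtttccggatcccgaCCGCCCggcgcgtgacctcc
Mgll: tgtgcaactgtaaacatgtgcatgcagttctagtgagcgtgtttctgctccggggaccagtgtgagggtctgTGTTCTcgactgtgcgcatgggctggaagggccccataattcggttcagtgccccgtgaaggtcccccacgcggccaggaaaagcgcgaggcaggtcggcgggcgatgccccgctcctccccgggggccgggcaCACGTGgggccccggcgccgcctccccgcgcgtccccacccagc
The Cnr1 window held 5 GC boxes and was 79.2% G and C, against a median of 52.4% over all promoter windows. The Mgll window held 1 E-box and 1 TGTTCT and was 68.0% G and C. Windows at other start sites of these genes differed. At start sites 2 and 3 of Cnr1 they held 0 GC boxes and were 68.8% and 49.2% G and C, with 1 E-box at site 2. At start site 2 of Mgll the window held 1 GC box, 0 E-boxes and 0 TGTTCT. A GC box occurred in 32.7% of 32851 promoter windows of this length, TGTTCT in 16.1% and the E-box in 6.02%. The cAMP response element TGACGTCA (1.55% of windows) and its short form TGACG (17.8%) were not among the letters of either window shown. The short form lies within the full element, and the table held windows for 8 of the 10 genes.

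Cnr1 encodes CB1, the G protein-coupled receptor through which endocannabinoids quiet axon terminals, and it was lower after repeated morphine. Its log2 differences were -0.23, -0.20 and -0.49 in morphine arrays 1 to 3. In butyrate-morphine arrays 1 to 3 they were -0.20, -0.18 and -0.26, and the saline arrays ran from -0.11 to 0.11. All 6 arrays of the morphine groups lay below all saline arrays, a pattern that 1.26% of all probe sets showed, and morphine array 3 was the lowest.

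Against saline, Cnr1 fell by 0.31 on the log2 scale with morphine (-0.31 ± 0.16, SD, n = 3), to 0.809 of the saline level. The 95% interval of the difference was -0.44 to -0.17, with a limma adjusted p of 0.0254. With butyrate-morphine the difference was -0.22 ± 0.04 (SD, n = 3), 0.861 of saline, and it missed the threshold of 0.05 (limma adjusted p = 0.0942). Between the morphine groups the difference was 0.09, with an interval of -0.07 to 0.25 (limma adjusted p = 0.786), so a larger fall with either treatment was not shown. Over both morphine groups together Cnr1 fell by 0.26 (interval -0.37 to -0.15, limma adjusted p = 0.013), a comparison that shares its arrays with the first 2.

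Cnr1 was the 1 gene of the 10 that passed with morphine against saline, where 2.45% of all probe sets passed, and it was 1 of 2 whose morphine arrays lay below all saline arrays, beside 4.17% of all probe sets. In the joint comparison it was also the only 1 of the 10, beside 4.46% of all probe sets. The call with morphine was lost without morphine array 3 (-0.21, adjusted p = 0.0965), without saline arrays 2, 4 or 6 (adjusted p = 0.0537, 0.0531 and 0.0507), and when each mirror pair of saline arrays was counted once (adjusted p = 0.093). Over the alternatives other than leaving out 1 array, its adjusted p ran from 0.0165 to 0.632. With butyrate-morphine, Cnr1 was the 1 gene of the 10 whose arrays lay below all saline arrays, beside 4.57% of all probe sets. The joint call held in each of the 12 fits without 1 array (adjusted p 0.0082 to 0.0331), though those without a saline array kept its mirror image. It held in only 8 of the 14 other alternatives, among them mirror pairs counted once (adjusted p = 0.0495), and the adjusted p was 0.154 under quantile normalization and up to 0.619 with 1 pair of saline arrays. Without morphine array 3, Cnr1 passed with butyrate-morphine as well (adjusted p = 0.0313).

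**Figure D1:**
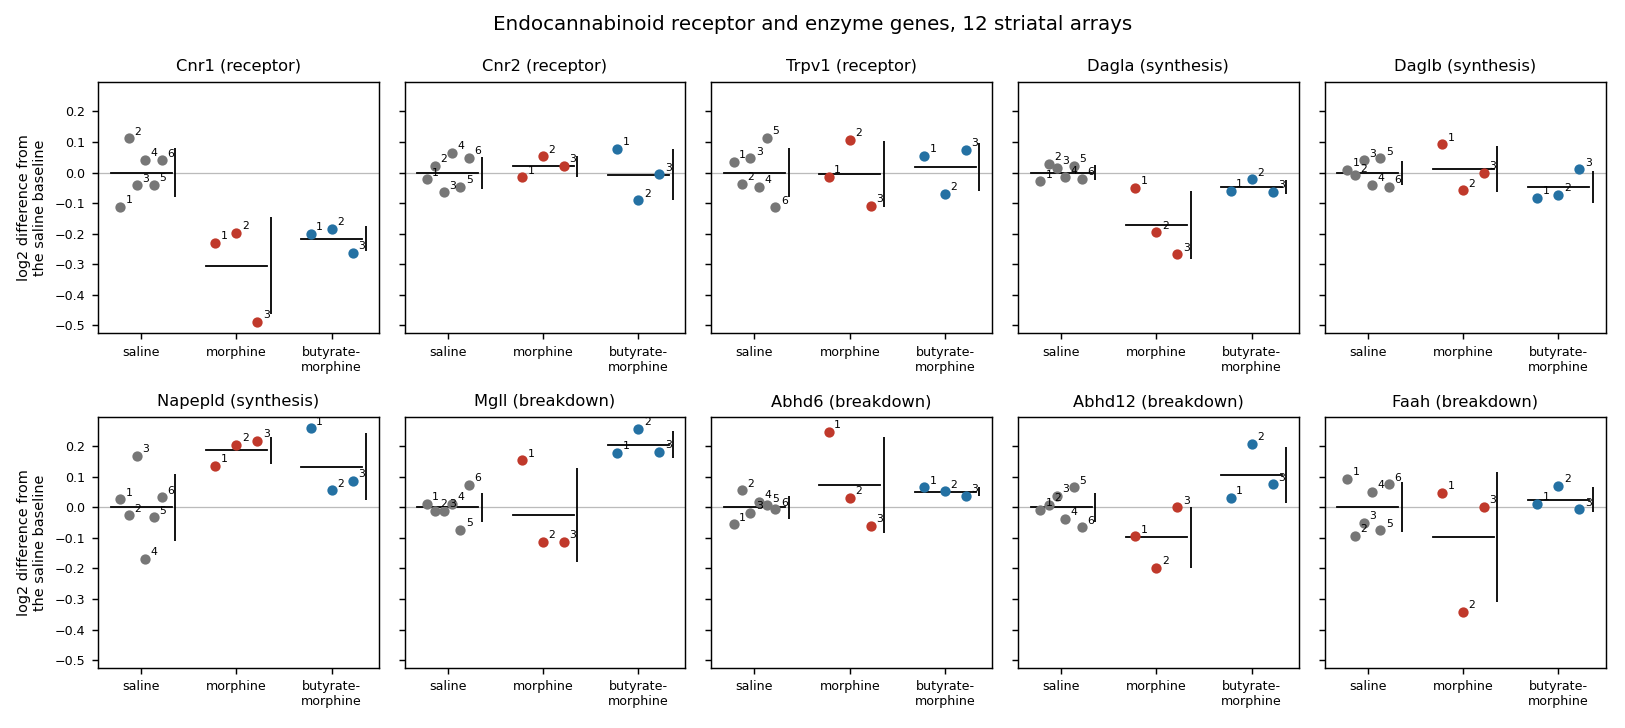
Log2 difference from the saline baseline (y axis, no unit) of each of the 10 genes in 6 saline, 3 morphine and 3 butyrate-morphine arrays. Points are arrays with their replicate number, horizontal lines are group means and vertical lines are 1 SD on either side. Cnr1 is below the saline arrays in all 6 arrays of the morphine groups, and Mgll is at 0.18 to 0.26 in the butyrate-morphine arrays.

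The other receptors showed no difference that passed. Cnr2 encodes CB2, found mainly on immune cells and in brain on microglia. It was at -0.02, 0.05 and 0.02 in the morphine arrays and at 0.08, -0.09 and -0.01 in the butyrate-morphine arrays, inside or near the saline range of -0.06 to 0.06. Its difference with morphine was 0.02 (interval -0.07 to 0.11, limma adjusted p = 0.895). Trpv1 encodes the capsaicin-gated cation channel, which anandamide can also open. Its morphine arrays were at -0.01, 0.11 and -0.11 and its butyrate-morphine arrays at 0.05, -0.07 and 0.07, all within the saline range of -0.11 to 0.11. Trpv1 differed from saline by -0.01 with morphine (interval -0.13 to 0.12) and by 0.02 with butyrate-morphine (interval -0.11 to 0.14). Both genes are in the class whose stored values were not all 8 or more.

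Among the synthetic enzymes, Dagla came closest to the threshold. Dagla is the diacylglycerol lipase that makes most 2-arachidonoylglycerol (2-AG), the more abundant endocannabinoid of adult brain. It was at -0.05, -0.20 and -0.27 in morphine arrays 1 to 3, all below the narrow saline range of -0.03 to 0.03. The butyrate-morphine arrays were at -0.06, -0.02 and -0.06, and array 2 overlapped saline.

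Dagla differed from saline by -0.17 ± 0.11 with morphine (SD, n = 3, interval -0.26 to -0.08), just short of the threshold (limma adjusted p = 0.0526). With butyrate-morphine it differed by -0.05 ± 0.02 (interval -0.14 to 0.04, limma adjusted p = 0.619). The difference between the morphine groups was 0.12 (interval 0.02 to 0.23), with an unadjusted limma p of 0.0258 and an adjusted p of 0.503. Without morphine array 1, Dagla passed with morphine (-0.23, adjusted p = 0.00374) and in the joint comparison (-0.14, adjusted p = 0.00987). Its adjusted p with morphine ran from 0.0413 to 0.932 over the other alternatives.

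Daglb, the second diacylglycerol lipase and the main one of macrophages and microglia, lay near the saline range. It was at 0.09, -0.06 and -0.00 with morphine and at -0.08, -0.07 and 0.01 with butyrate-morphine, against -0.05 to 0.05 in saline. Neither difference from saline passed (0.01 and -0.05, limma adjusted p = 0.944 and 0.603).

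Napepld encodes the phospholipase D that releases anandamide from its membrane precursor. It was above 0 in all 6 arrays of the morphine groups, at 0.14, 0.20 and 0.22 with morphine and at 0.26, 0.06 and 0.09 with butyrate-morphine. Saline arrays 3 and 4, a mirror pair, were at 0.17 and -0.17, so both groups overlapped saline. The differences were 0.19 ± 0.04 with morphine (interval 0.05 to 0.32, limma adjusted p = 0.161) and 0.13 ± 0.11 with butyrate-morphine (interval -0.00 to 0.27, limma adjusted p = 0.308). In the joint comparison Napepld was at 0.16 and did not pass (limma adjusted p = 0.107), except without saline array 3 (0.19, adjusted p = 0.0451), whose mirror image at -0.17 stayed in that fit.

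The 4 degrading enzymes had a median difference of 0.16 between the butyrate-morphine and the morphine group, beside 0.01 over all probe sets. Abhd6 was at -0.02. In this comparison the median was 0.12 over projection neuron markers, 0.38 over cortical markers and -0.18 over thalamic and septal markers. Mgll encodes monoacylglycerol lipase, which clears most 2-AG in brain. It was at 0.15, -0.11 and -0.11 in morphine arrays 1 to 3, and at 0.18, 0.26 and 0.18 in butyrate-morphine arrays 1 to 3, with saline between -0.07 and 0.07. The butyrate-morphine arrays lay above all saline arrays, as in 7.22% of all probe sets, and above all morphine arrays, while morphine array 1 was on their side of saline and arrays 2 and 3 on the other.

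Mgll differed from saline by 0.21 ± 0.04 with butyrate-morphine (SD, n = 3, interval 0.09 to 0.33), 1.15 times the saline level, and missed the threshold (limma adjusted p = 0.0733). With morphine it differed by -0.02 ± 0.15 (interval -0.14 to 0.10, limma adjusted p = 0.904). Butyrate-morphine exceeded morphine by 0.23 (interval 0.09 to 0.37), with an unadjusted limma p of 0.00345 and an adjusted p of 0.36. Without morphine array 1 both differences passed, at 0.21 against saline (adjusted p = 0.0118) and 0.32 against morphine (adjusted p = 0.0355). Over the other alternatives the adjusted p ran from 0.0126 to 0.899 against saline and from 0.225 to 1 against morphine, where none passed.

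Abhd12, an integral membrane hydrolase that takes a small part of 2-AG breakdown and also acts on lysophosphatidylserine, showed a like split. It was at -0.10, -0.20 and 0.00 in the morphine arrays and at 0.03, 0.21 and 0.07 in the butyrate-morphine arrays, against -0.07 to 0.07 in saline. The 2 morphine groups did not overlap each other, though each overlapped saline. Butyrate-morphine exceeded morphine by 0.20 (interval 0.08 to 0.33), with an unadjusted limma p of 0.00405 and an adjusted p of 0.374. The differences from saline were -0.10 ± 0.10 with morphine and 0.10 ± 0.09 with butyrate-morphine (limma adjusted p = 0.384 and 0.309).

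Mgll and Abhd12 were thus 2 of 10 genes whose butyrate-morphine arrays all exceeded the morphine arrays, beside 7.73% of all probe sets. No gene passed in that comparison: limma called 0 of 21780 probe sets (0% of them), while 8.71% had an unadjusted p under 0.05. That unadjusted level was reached by 3 of the 10 genes, Mgll, Abhd12 and Dagla. Against saline with butyrate-morphine, 2.35% of all probe sets passed and 0 of the 10 genes did. The 10 genes had a median difference of -0.01 with morphine and 0.02 with butyrate-morphine, beside -0.00 and 0.01 over all probe sets.

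Abhd6, a hydrolase of 2-AG on the postsynaptic side, varied between arrays of the same treatment. It was at 0.25, 0.03 and -0.06 with morphine and at 0.07, 0.05 and 0.04 with butyrate-morphine, with saline from -0.06 to 0.06. Its SD was 0.16 over the morphine arrays and 0.01 over the butyrate-morphine arrays. The differences from saline were 0.07 and 0.05 (limma adjusted p = 0.586 and 0.688), and the morphine groups differed by -0.02 (interval -0.15 to 0.11).

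Faah encodes fatty acid amide hydrolase, which degrades anandamide. It was at 0.05, -0.34 and 0.00 in the morphine arrays and at 0.01, 0.07 and -0.01 in the butyrate-morphine arrays, with saline between -0.09 and 0.09. Morphine array 2 alone left the saline range. Faah therefore had the widest spread of the 10 genes over the morphine arrays (SD 0.21), and its difference from saline of -0.10 did not pass (interval -0.26 to 0.06, limma adjusted p = 0.605).

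**Figure D2:**
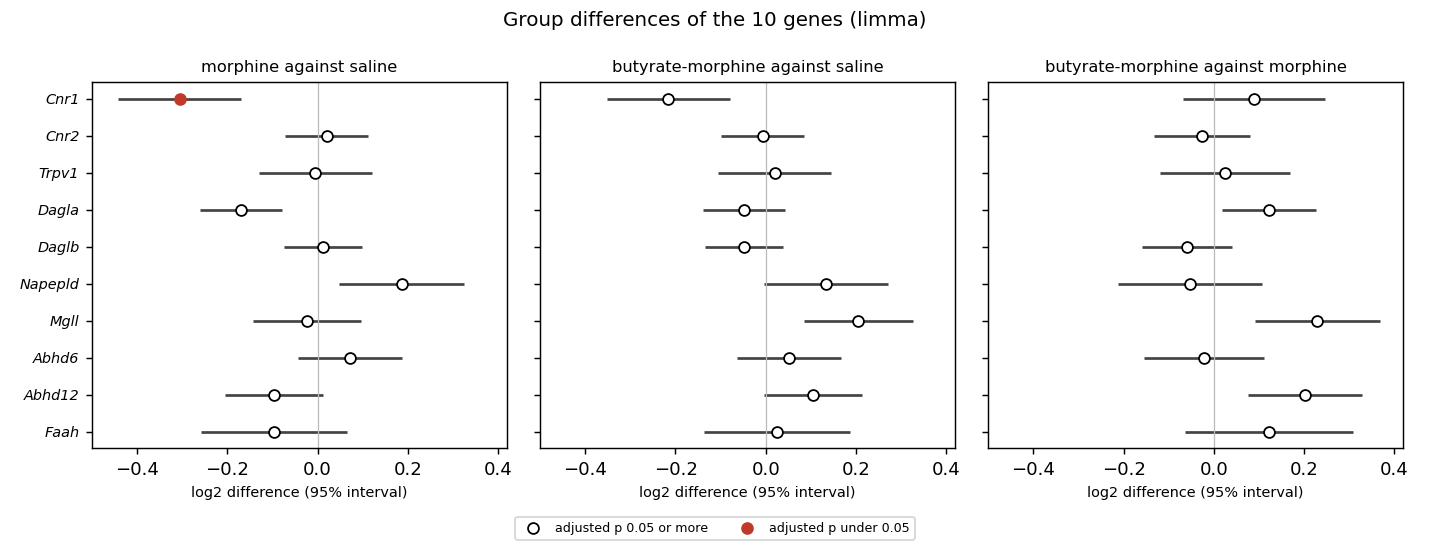
Difference between groups on the log2 scale (x axis) for each of the 10 genes (rows) in 3 comparisons, with the 95% interval from limma as a horizontal line. The filled point has an adjusted p under 0.05, which is Cnr1 with morphine against saline at -0.31. Open points did not pass, among them Mgll at 0.23 and Abhd12 at 0.20 with butyrate-morphine against morphine.

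Of the 3 morphine arrays, array 1 had the highest value for Mgll, Abhd6, Daglb, Dagla and Faah. The highest value was in array 2 for Cnr1, Cnr2 and Trpv1, and in array 3 for Napepld and Abhd12. For Faah it was array 2 that stood apart, at -0.34, and for Cnr1 it was array 3, at -0.49. The share of all probe sets highest in array 1 was not counted. Cortical excitatory neuron markers were also highest in array 1. The mean over 5 measured markers was 0.08, -0.73 and -0.33 in arrays 1 to 3 of the morphine group. It was -0.08 to 0.08 in saline and -0.15 to 0.04 in the butyrate-morphine arrays. None of these 5 passed with morphine. The mean over 8 thalamic and septal markers was 0.09, 0.54 and 0.65 in morphine arrays 1 to 3. In butyrate-morphine arrays 1 to 3 it was 0.49, -0.07 and 0.24. With morphine 3 of the 8 rose, where 2.45% of all probe sets passed in either direction. The part of neighbouring tissue in the values of the 10 genes was not tested.

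Projection neurons are the main cell type of the striatum and a major site of Cnr1 expression. The mean over 8 of their markers was -0.10, -0.13 and -0.15 in morphine arrays 1 to 3, below the saline range of -0.05 to 0.05, and -0.03, -0.00 and 0.03 in the butyrate-morphine arrays, within it. Of these markers 2 fell with morphine (Drd2 and Pde10a), where 1.15% of all probe sets fell. With butyrate-morphine 0 passed, where 2.35% of all probe sets did. The 8 interneuron markers had a mean of 0.01, -0.12 and -0.15 with morphine and of -0.02 to -0.00 with butyrate-morphine, and none passed.

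Of the non-neuronal lists, 8 microglia markers had means of -0.12, -0.12 and -0.21 with morphine and of -0.18, -0.13 and -0.11 with butyrate-morphine, against -0.07 to 0.07 in saline. Of these markers 2 fell with morphine and 1 with butyrate-morphine. Over all probe sets, 2.45% passed with morphine and 2.35% with butyrate-morphine, in either direction. Endothelial markers (9 measured, mean -0.24 to -0.16 with morphine) gave 4 falls and 1 rise, the glucose transporter gene Slc2a1. With butyrate-morphine their mean was -0.17 to -0.08, also with 4 falls and 1 rise. All 8 choroid plexus markers rose with morphine and 7 of them with butyrate-morphine. Their list means were 1.30 to 1.54 in the morphine arrays and 0.96 to 1.26 in the butyrate-morphine arrays. The list means of 9 astrocyte markers were 0.07 to 0.12 with morphine and 0.06 to 0.14 with butyrate-morphine, and 1 rose with each. Single astrocyte markers ran from -0.08 (Slc1a2) to 0.41 (Gjb6) with morphine, with a median of 0.05. For 9 oligodendrocyte markers the list means were -0.10 to 0.04 with morphine and -0.00 to 0.12 with butyrate-morphine, and 1 fell with each. The part of these shifts in the 10 genes was not tested.

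**Figure D3:**
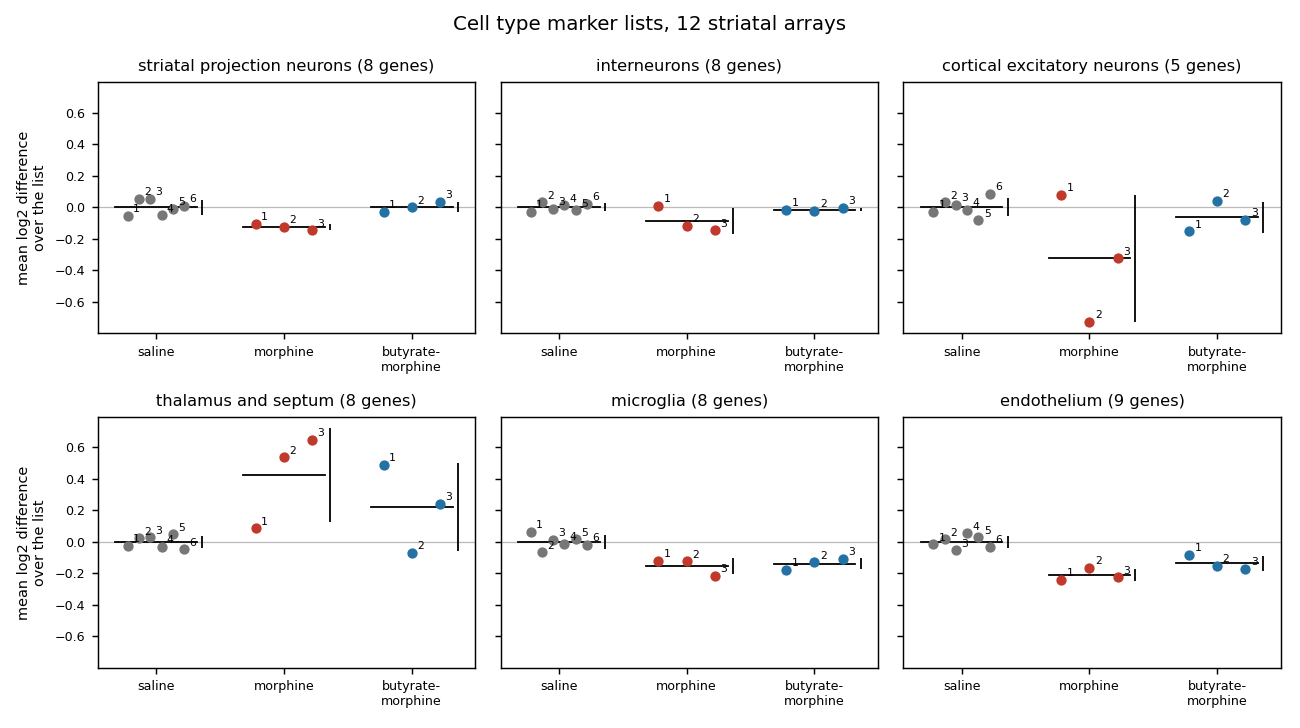
Mean log2 difference over each of 6 marker lists (y axis) in the 12 arrays, drawn as in the plot of single genes, with the number of genes measured in each title. Projection neuron markers are at -0.15 to -0.10 in the morphine arrays and at -0.03 to 0.03 in the butyrate-morphine arrays, and cortical markers reach -0.73 in morphine array 2.

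The genes whose pattern over the 12 arrays was most like that of Cnr1 were found by Pearson correlation, a description in which the arrays share treatment and mirror pairs. They were Pde10a, a cyclic nucleotide phosphodiesterase of projection neurons (r = 0.95), the G protein regulator Rgs20 (0.95), Adgra2, an adhesion receptor of brain vessels (0.94), Coch (0.94) and the neuropeptide gene Npy (0.93). Coch was at -0.19, -0.23 and -0.50 in morphine arrays 1 to 3, close to the values of Cnr1. Npy was at -0.13, -0.17 and -0.53, again lowest in array 3. The most opposite patterns were those of Unc5d, a netrin receptor (-0.95), the interneuron transcription factor gene Dlx1 (-0.94) and Iqcg (-0.93). Dlx1 was at 0.27, 0.26 and 0.49 in the morphine arrays and at 0.28 to 0.36 in the butyrate-morphine arrays.

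Further genes of the pathway were taken by role. The supply of diacylglycerol for 2-AG begins at Gq-coupled receptors and phospholipase C, and of 11 probe sets for 10 genes 2 fell and 0 rose with morphine (1.15% of all probe sets fell). Plcb3, a phospholipase C, was at -0.20, -0.20 and -0.19 in the morphine arrays and at -0.23, -0.14 and -0.11 in the butyrate-morphine arrays, all below the saline range of -0.09 to 0.09. It fell by 0.20 with morphine (limma adjusted p = 0.0219) and by 0.18 in the joint comparison (limma adjusted p = 0.00857), and was at -0.16 with butyrate-morphine (limma adjusted p = 0.0587). The call with morphine was lost without saline array 1 (adjusted p = 0.0501), morphine array 2 (0.0511) or morphine array 3 (0.0768), and the one with butyrate-morphine appeared without saline array 6 (0.0417). The joint call held in all 12 fits without 1 array and in 8 of 13 other alternatives, with an adjusted p of up to 0.686.

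Chrm1, the muscarinic M1 receptor gene, fell by 0.28 with morphine (limma adjusted p = 0.0468). Its values were -0.08, -0.41 and -0.35 in morphine arrays 1 to 3 and -0.21, 0.01 and -0.02 in butyrate-morphine arrays 1 to 3. It passed in 2 of the 12 fits without 1 array, where the array left out was number 1 of the morphine or of the butyrate-morphine group, and its adjusted p reached 0.184 without morphine array 3. Like the cortical markers, it was highest in morphine array 1 and lowest in array 2.

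Of 9 genes for G proteins and channels that CB1 acts through, 1 fell with morphine, where 1.15% of all probe sets fell. None of the 9 passed with butyrate-morphine, where 2.35% of all probe sets did. The gene that fell was Adcy5, the main adenylyl cyclase of the striatum and a target that CB1 inhibits through Gi proteins. It was at -0.14, -0.11 and -0.22 with morphine, below the saline range of -0.04 to 0.04, and at -0.08, 0.00 and -0.04 with butyrate-morphine. The fall with morphine was 0.16 (limma adjusted p = 0.0335), and the morphine groups differed by 0.12 without passing (limma adjusted p = 0.438). The call held in 6 of 12 fits without 1 array. It was lost without saline arrays 1, 2, 3, 4 or 6 (adjusted p 0.0585 to 0.0725) and without morphine array 3 (0.147). With mirror pairs of saline arrays counted once, Plcb3, Chrm1 and Adcy5 all missed the threshold with morphine (adjusted p = 0.0987, 0.14 and 0.144), and Plcb3 kept its joint call (0.0458).

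No gene passed in the remaining roles, in any comparison. These were 10 other receptors and receptor partners, 11 genes of other routes to anandamide, and 13 probe sets for 11 genes of other breakdown and transport. The lowest unadjusted p-values belonged to Pparg, a nuclear receptor that binds fatty acid derivatives (0.13 with butyrate-morphine, limma adjusted p = 0.074), and Pla2g5, a secreted phospholipase (0.17 with morphine, limma adjusted p = 0.0702). In the last role it was Fabp3, a fatty acid carrier (-0.22 with butyrate-morphine, limma adjusted p = 0.117). The second Fabp3 probe set gave -0.12 (limma adjusted p = 0.423). The medians of the 5 roles were between -0.05 and 0.04 with either treatment.

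**Figure D4:**
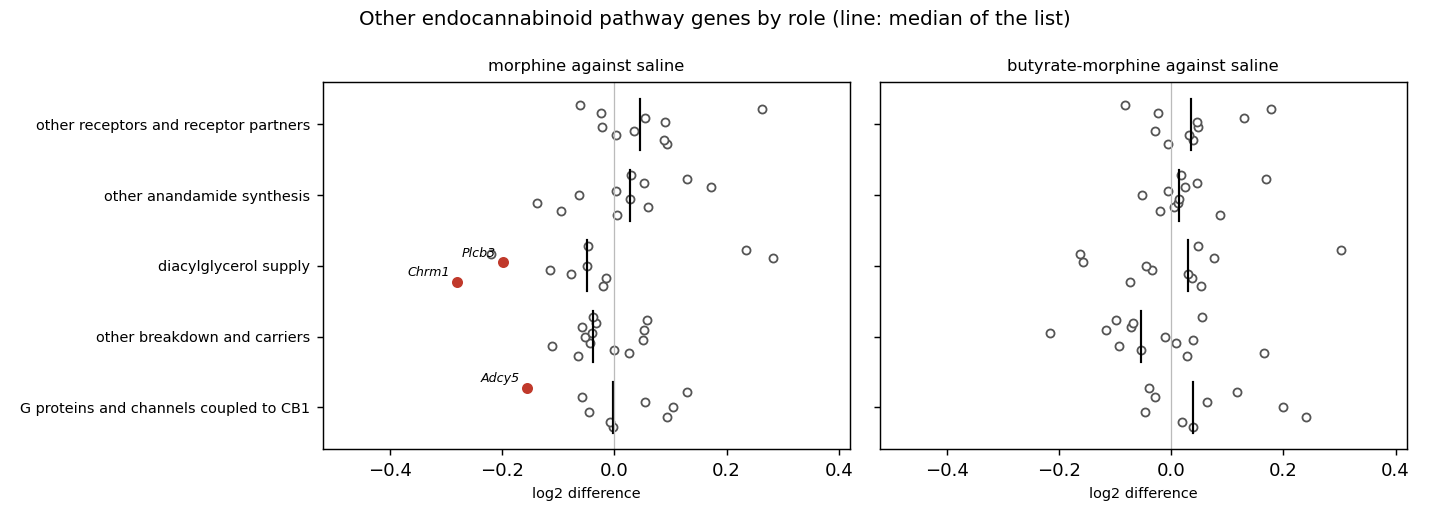
Log2 difference from saline (x axis) of other pathway genes by role (rows), with morphine and with butyrate-morphine. Points are probe sets, filled where the adjusted p was under 0.05, and the vertical line is the median of the role. Chrm1 at -0.28, Plcb3 at -0.20 and Adcy5 at -0.16 are the filled points, all with morphine.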

How the data were processed

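Per the labels' protocols, each array (Affymetrix Mouse Gene ST) was hybridised with striatal RNA pooled from 4 animals. The authors deposited a table of 28815 rows of log differences from a baseline, taken here as log2. Background correction, normalization and log base were not given in the sources used here. By the platform annotation, 21780 probe sets had 1 gene symbol and were tested, 1605 had several and 5430 had none.

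Groups came from the sample titles. Comparisons used limma 3.58.1 under R 4.3.3 (lmFit and eBayes, all 12 arrays, 3 group means, 1 shared spread, 9 residual and 3.87 prior degrees of freedom). P-values were adjusted by Benjamini-Hochberg over the 21780 probe sets and called under 0.05. The main fit, with its p-values and intervals, counted the 6 saline arrays as independent, though they hold 3 independent values. As each saline pair is mirrored, differences between pairs are not in the saline values. The labels call the pools biological replicates and name no cohorts. The p-values thus cover the spread between these pooled samples only as far as the deposited values hold it. The number of arrays limits the precision.

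The genes and lists were chosen with earlier results of these data known. All 10 genes are named. Of the other pathway genes, those that passed are named, and in a role where none did, the gene with the lowest unadjusted p. For Cnr1 the text names the 5 probe sets with the highest and the 3 with the lowest (most negative) correlation. On simulated morphine and saline arrays (3 runs over 21780 probe sets, 200 changed), limma recovered 50.3% of 1.2-fold and 93.7% of 1.5-fold changes, with p under 0.05 for 5.99% of the unchanged ones. Counting each saline mirror pair once gave 30%, 88.3% and 3.38%. In the simulation the mean of a saline pair was subtracted from the morphine and butyrate-morphine arrays of the matching number. The real morphine and butyrate-morphine arrays showed no pairing by number, so these shares hold for the simulated setting only. Alternatives covered normalization, centring, rows tested, brightness class, probe sets per gene, the eBayes prior, array weights, groups in the fit, replicate block, mirror pairs, saline arrays used, thresholds and each array left out. Where a saline array was left out, its mirror image stayed in the fit.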

Additional observations from a re-analysis of the deposited data

How the results depend on the processing

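The number of the 10 genes past the threshold was 1 with morphine against saline and in the joint comparison, and 0 in the others. It became 0 in both of the former with quantile normalization, with only saline arrays 1 and 2, 3 and 4 or 5 and 6, and at a threshold of 0.01. Quantile normalization gives all arrays the same distribution of values, and its part in the lost calls was not tested. With morphine against saline it was also 0 with trend and robust eBayes and with mirror pairs counted once, and 2 (Cnr1 and Dagla) with only bright probe sets, 1 value per gene, array weights or a threshold of 0.1. In the joint comparison it was 2 with array weights and at 0.1. With butyrate-morphine against saline it was 1 (Mgll) with array weights and 2 (Cnr1 and Mgll) with only the groups compared and at 0.1. Without 1 array it ranged from 0 to 2 with morphine, 0 to 1 with butyrate-morphine, 0 to 1 between the morphine groups and 1 to 2 jointly. No gene of the family reversed its direction while called.

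With the replicate number as a block, 0 genes passed in any comparison, and Cnr1 was at -0.29 with morphine (adjusted p = 0.252). Saline arrays 4, 5 and 6 share their number with no other array. The differences from saline in that fit thus rest on saline arrays 1, 2 and 3, with array 3 lacking its mirror image. The replicate numbers do not pair the arrays: deviations of same-numbered morphine and butyrate-morphine arrays correlated at -0.267 to -0.105. Of 3 morphine arrays, 0 correlated best with its own number. Morphine arrays 1, 2 and 3 correlated best with butyrate-morphine arrays 2, 3 and 1 (0.231, 0.306 and 0.156). Whether arrays belong together in that order was not tested, and no comparison paired them so.

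Over all probe sets the calls were 534 with morphine, 512 with butyrate-morphine and 972 jointly. They were 146, 171 and 345 with mirror pairs counted once, 49, 38 and 72 with the replicate block, 70, 97 and 171 with quantile normalization, 222, 218 and 531 with trend and robust eBayes, and 212, 186 and 330 among bright probe sets. Array weights gave 978 with butyrate-morphine and 1582 jointly, and only the groups compared gave 1134 with butyrate-morphine. With 1 pair of saline arrays they were 30 to 49. Without morphine array 1 they were 1092 with morphine and 27 between the morphine groups. The cause of these changes was not tested.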
